A study of Mus musculus with 6 samples.

Results

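Carbonic anhydrases are zinc enzymes that turn carbon dioxide and water into bicarbonate and a proton and back again. Array signal was examined here for 10 of them, namely Car1, Car2, Car3, Car4, Car5a, Car8, Car9, Car12, Car13 and Car14, in livers of Fah-deficient mice with and without the drug NTBC. Every probe set that names a single one of these genes in the array annotation was used, which gave 20 of 45037 probe sets. The family was picked because Car3 fell strongly between these very groups. Its fold changes are therefore given as a description, and no p-value is given for any member.

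The livers came from 6 male FRG mice of 12 weeks, on a C57Bl/6J background, all carrying the Fah, Rag2 and Il2rg knockouts. Fah is the last enzyme of tyrosine breakdown, and Rag2 and Il2rg are needed for mature lymphocytes, so both groups lack these as well. In the FRG+NTBC group, 3 mice drank 16 mg/L NTBC throughout. In the FRG-7dNTBC group, 3 mice had the same drug until the age of 11 weeks and then none for 7 days. NTBC blocks Hpd, which acts earlier in the same pathway, so that less substrate reaches the missing Fah step. No wild-type liver was analysed here, so every comparison is between treated and untreated Fah-deficient mice.

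The members differ in where they act. Car1, Car2, Car3 and Car13 are cytosolic, and their genes follow each other on mouse chromosome 3 in the order Car13, Car1, Car3, Car2, with no other protein-coding gene between them in the GRCm38.p6 annotation. Car5a is the mitochondrial enzyme of the liver and supplies bicarbonate to the first step of the urea cycle and to pyruvate carboxylase. Car4, Car9, Car12 and Car14 sit in the cell membrane with their active site facing outward. Car8 has lost the catalytic activity and binds the inositol trisphosphate receptor instead. In mouse liver Car3 is known as a very abundant protein of hepatocytes with weak carbon dioxide activity, and it has been linked to protection from oxidants.

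Promoter windows were at hand for 5 of the 10 members in the RefSeq table (GRCm38.p6), and those of Car1, Car2, Car3, Car8 and Car13 were not analysed here. Each window runs from 250 bases before to 50 bases after the annotated start. The windows of Car5a and Car14 are shown because these genes had the largest falls after Car3, and that of Car9 because Car9 is the member best known as a target of hypoxia. They are written 5′ to 3′ on the strand of the gene, with matches to the hypoxia element core in capitals.
Car5a (chr8:121944863-121945162, minus strand): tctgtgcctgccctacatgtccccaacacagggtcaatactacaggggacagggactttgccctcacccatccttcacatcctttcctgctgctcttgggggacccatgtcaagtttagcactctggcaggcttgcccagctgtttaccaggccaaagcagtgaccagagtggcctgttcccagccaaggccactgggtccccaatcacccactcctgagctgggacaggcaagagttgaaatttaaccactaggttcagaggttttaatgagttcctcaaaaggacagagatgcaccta
Car14 (chr3:95904636-95904935, minus strand): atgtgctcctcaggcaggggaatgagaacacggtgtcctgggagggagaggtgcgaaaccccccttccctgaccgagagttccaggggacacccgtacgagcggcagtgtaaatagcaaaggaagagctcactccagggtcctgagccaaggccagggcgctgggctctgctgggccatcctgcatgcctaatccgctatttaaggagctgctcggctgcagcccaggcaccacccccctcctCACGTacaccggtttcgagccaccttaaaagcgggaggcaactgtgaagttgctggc
Car9 (chr4:43506776-43507075, plus strand): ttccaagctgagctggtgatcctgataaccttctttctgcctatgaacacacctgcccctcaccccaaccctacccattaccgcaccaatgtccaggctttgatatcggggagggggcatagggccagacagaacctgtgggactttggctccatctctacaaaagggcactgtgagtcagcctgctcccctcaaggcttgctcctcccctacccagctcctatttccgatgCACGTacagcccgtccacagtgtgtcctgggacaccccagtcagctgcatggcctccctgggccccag
The search covered both strands for the hypoxia core ACGTG, for the antioxidant element TGACNNNGC and for the STAT5 element TTCNNNGAA, in which N is any base. Car14 held the hypoxia core on the opposite strand, as CACGT, from position -7 relative to the start, and Car9 held it from position -18. Car4 held it just behind the start, from position 3, while Car5a and Car12 had no match to any of the 3 motifs. Over all 32851 windows of this length, 19.6% held the hypoxia core, 12.4% the antioxidant element and 8.3% the STAT5 element. A match of so few letters is a description of the window and does not show that a factor binds there.

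Intensities below are the deposited values on a linear scale, in arbitrary units. Log2 fold changes are the mean log2 intensity of FRG-7dNTBC livers minus that of FRG+NTBC livers, with their standard error (SE) from limma. A probe set was called lower or higher where limma, fitted over all probe sets, gave an adjusted p under 0.05. Of the 20 carbonic anhydrase probe sets, 9 were called lower, where 13.9% of all probe sets were, and 2 were called higher, against 14.0% of all. The lower calls belonged to 5 genes (Car1, Car3, Car5a, Car8 and Car14) and the higher calls to 2 (Car2 and Car13). Car4, Car9 and Car12 had no call. After scaling the arrays to the same 75th percentile, 9669 of all probe sets were lower and 5366 higher in place of 6262 and 6284, while the carbonic anhydrases again had 9 and 2. Lower calls of 5-fold or more numbered 6, from Car3, Car5a and Car14, against 0.637% of all probe sets, and 0 probe sets were called higher by that fold, against 0.853%. The values of the groups did not overlap at 16 of the 20, against 44.1% of all. Without the 4 probe sets of Car3, 5 of the remaining 16 were called lower. The median log2 fold change was -0.31 over the 20 probe sets and -0.08 over all probe sets. Because the family was chosen on this contrast, nothing is read from these shares.

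**Figure D1:**
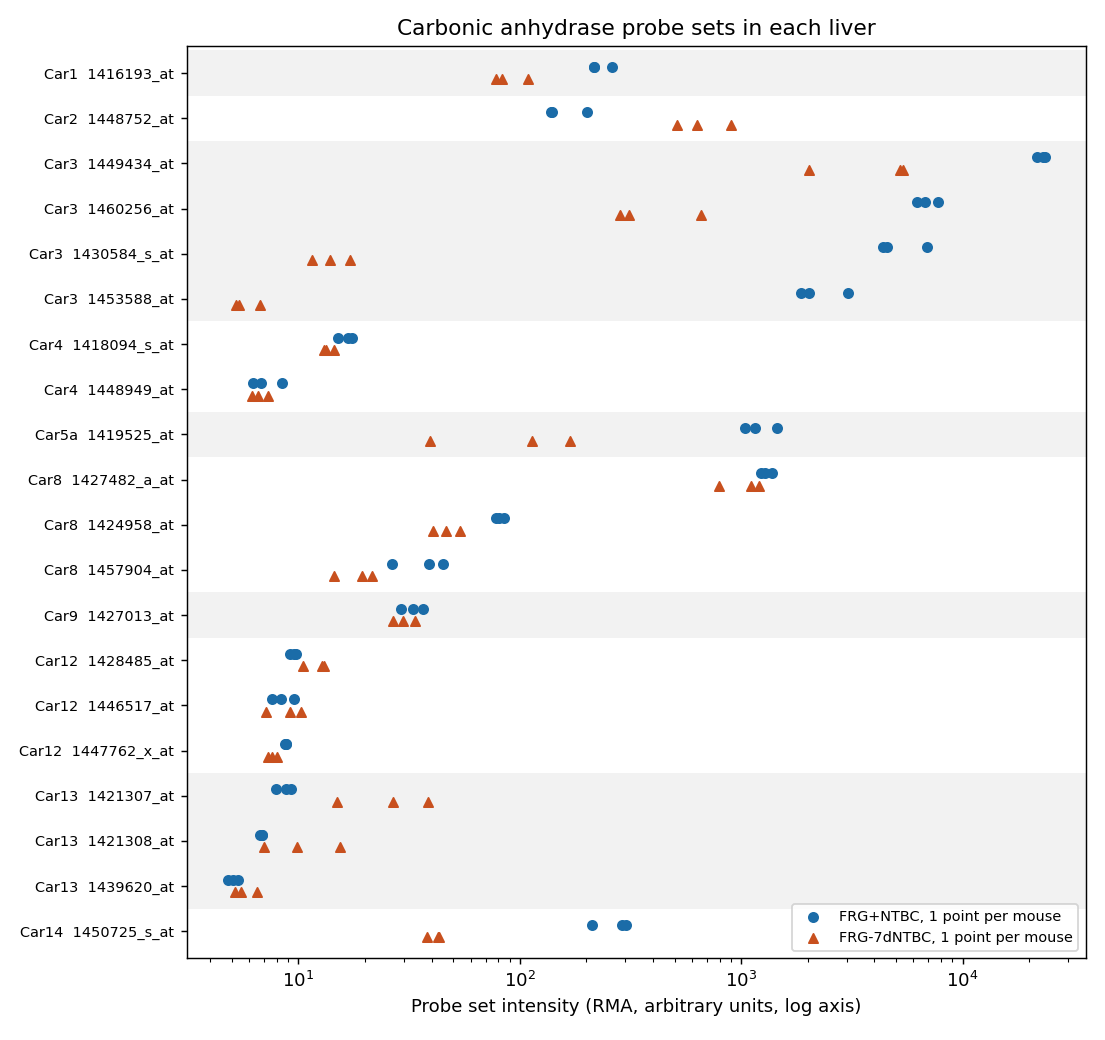
Intensity of each of the 20 carbonic anhydrase probe sets (horizontal axis, log scale, arbitrary units), with 1 point per liver, circles for the 3 FRG+NTBC mice and triangles for the 3 FRG-7dNTBC mice. The 4 Car3 probe sets, Car5a, Car14 and Car1 lie to the left without NTBC, Car2 and the upper Car13 probe set lie to the right, and Car4, Car9 and Car12 read 36.5 or less in every liver.

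Car3 was read by 4 probe sets, and all of them fell in all 3 livers without NTBC. At the brightest, 1449434_at, the FRG+NTBC livers had intensities of 23494, 21619 and 23010. The FRG-7dNTBC livers had 5405, 2034 and 5221. The groups lay far apart, and mouse 2 without the drug stood lowest. This is a log2 fold change of -2.56 (SE 0.34), or 5.88-fold lower. With NTBC this probe set was number 8 of 45037 in mean intensity, so it read close to the top of the scale of these arrays.

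The second probe set of Car3, 1460256_at, read 6794, 6252 and 7750 with NTBC. Without NTBC it read 662, 284 and 311. Here mice 2 and 3 were the low ones, and the fold change was -4.15 on the log2 scale (SE 0.30), 17.8-fold lower. Probe set 1430584_s_at went from 4360, 4545 and 6937 to 13.8, 11.5 and 17.2, a log2 fold change of -8.53 (SE 0.22). Probe set 1453588_at went from 2034, 1872 and 3040 to 5.21, 5.39 and 6.68, a log2 fold change of -8.63 (SE 0.20). Both of these ended inside the range of 4.94 to 99.4 read by probe sets of lymphocyte genes, which have little or no target in these mice, so the sizes of their falls are not exact. The array annotation gives both the same source sequence, and the brighter pair shares another.

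The probe sets of Car3 thus gave the same direction, with the log2 fold change at 1460256_at differing from that at the brightest by -1.60 (SE 0.39). The size is uncertain at both ends, since the brightest probe set read near the top of the scale with NTBC and the dimmer pair read within the range of little or no target without it. Against the mean of the treated livers, the 3 livers without NTBC were 4.20-fold, 11.2-fold and 4.35-fold lower at the brightest probe set. At 1460256_at they were 10.4-fold, 24.3-fold and 22.2-fold lower. Which part of the Car3 transcript each probe set reads was not analysed here.

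Car3 is also abundant in fat and skeletal muscle, so markers of these tissues were read in the same livers. For the counts of these and the later lists, 17.4% of 18193 genes were higher at their brightest probe set, and 12.7% were lower. Of 8 adipocyte markers 5 were measured, of which 2 were higher and none lower. Their summed intensity was 123 to 185 with NTBC and 626 to 1095 without. Most of the sum without NTBC came from Cidec, whose mean was 478, against 17.8 with NTBC. The lipid droplet protein Cidec rose by 4.67 on the log2 scale (SE 0.27, limma adjusted p = 4.03e-05), while the fat hormone gene Adipoq had means of 9.43 ± 1.40 in treated livers and 10.3 ± 0.478 in the others (SD over 3 mice), both inside the lymphocyte range. Of 8 skeletal muscle markers, all measured, 1 was higher and none lower, with summed intensities of 194 to 231 and 229 to 278. Both group means of every muscle marker lay inside the lymphocyte range, so they gave no measure of muscle. No gene of either list was called lower. With no moderation of the variances, 1 adipocyte gene was called higher and 1 muscle gene lower. Of 8 measured hepatocyte genes 2 were lower, or 1 when FRG+NTBC mouse 2 or 3 or FRG-7dNTBC mouse 1 or 2 was left out, and their summed intensity was 122620 to 131988 with NTBC and 113873 to 125508 without. In pieces of liver with all their cell types, fewer cells of a type and less RNA per cell cannot be told apart.

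**Figure D2:**
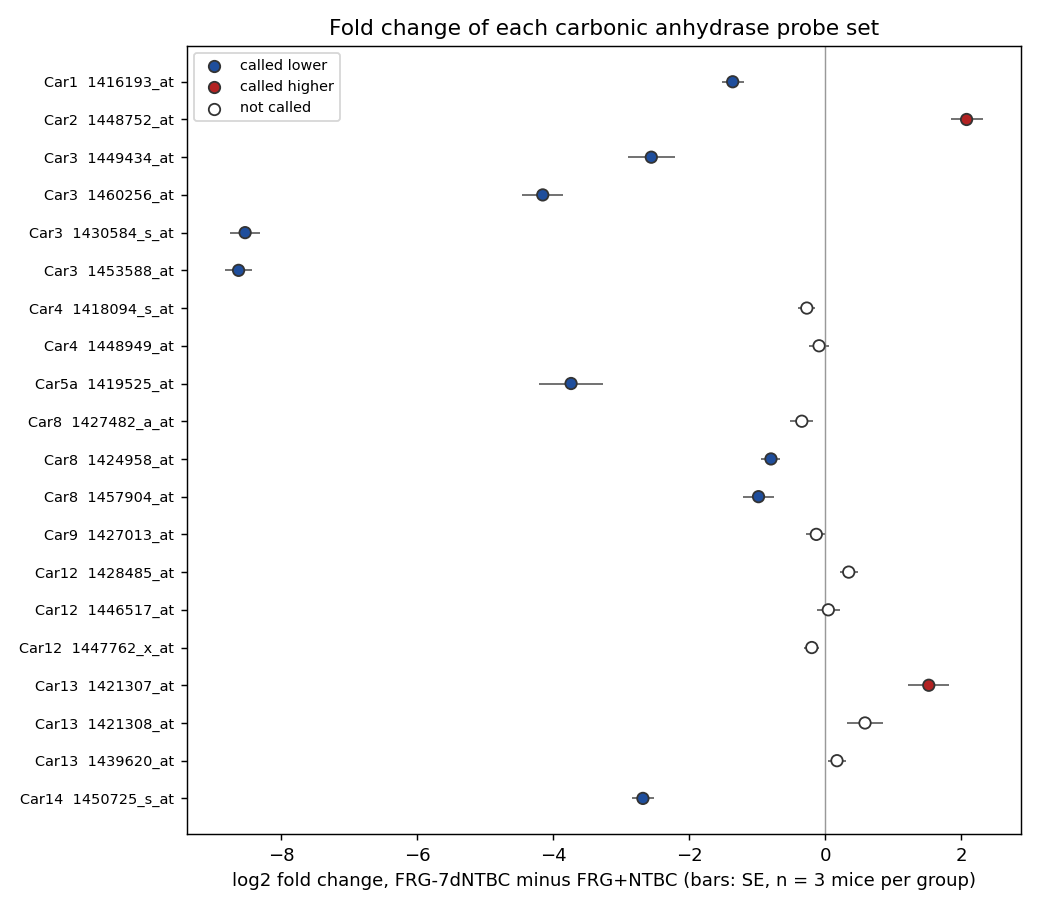
Log2 fold change in FRG-7dNTBC livers against FRG+NTBC livers of each carbonic anhydrase probe set (points) with its SE (bars, n = 3 mice per group). The probe sets of Car3 spread from -2.56 to -8.63, Car5a stands at -3.74 and Car14 at -2.68, and Car2 at 2.08 is the highest.

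Car2, the fast cytosolic enzyme of red cells, bile duct cells, osteoclasts and many epithelia, went the other way from its neighbour Car3. Its single probe set read 138, 140 and 201 in FRG+NTBC livers. In FRG-7dNTBC livers it read 904, 630 and 516. Every liver without NTBC was above every treated liver, and the log2 fold change was 2.08 (SE 0.24), 4.23-fold higher. Leaving out single mice and the other settings kept it between 1.86 and 2.32.

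Car13, a cytosolic enzyme of several epithelia, was called higher at 1 of its 3 probe sets. All 3 had both group means inside the range of little or no target. At 1421307_at the treated livers read 8.75, 9.25 and 7.94, and those without NTBC read 38.3, 14.9 and 26.7. The groups did not overlap, but mouse 2 lay close to the treated livers, and the log2 fold change was 1.52 (SE 0.30). An ordinary linear model without moderation did not call it. The other probe sets stood at 0.59 (SE 0.26) and 0.17 (SE 0.13), and neither was called. With FRG-7dNTBC mouse 2 left out, the first of them was called as well, at 0.86.

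Car1, an enzyme best known as abundant in red cells, fell. The treated livers read 215, 215 and 260, and the livers without NTBC read 109, 83.3 and 78.3. The groups lay well apart, at a log2 fold change of -1.36 (SE 0.16), 2.57-fold lower. The mean without NTBC, 90.2, was inside the range of little or no target, near its top. Of 10 erythroid markers 6 were measured. Alas2, the heme synthesis enzyme of red cell precursors, fell by 1.67 on the log2 scale (SE 0.19, limma adjusted p = 0.000599), and the other 5 were not called. With FRG-7dNTBC mouse 3 left out, 2 were lower. Their summed intensity was 727 to 952 with NTBC and 284 to 377 without, most of it from Alas2. The probe set of the globin gene Hba-a1 had means of 8.79 and 9.45, inside the range of little or no target, and so gave no measure of red cells. That range also held both group means of every other erythroid gene that was not called. The part of red cells or their precursors in the fall of Car1 was not tested.

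Car2 is present in red cells, bile ducts and some macrophages as well, and of the red cell list above 1 gene was lower and none higher. Of 8 measured cholangiocyte markers none was called, although 1 was called higher when FRG-7dNTBC mouse 2 was left out. Their summed intensities were 256 to 300 with NTBC and 239 to 315 without. Both group means of all 8 lay inside the range of little or no target, so they gave no measure of bile duct cells. Of 10 macrophage markers 4 were higher and none lower, with sums of 1809 to 2619 and 1831 to 5005. Among them Cd68 rose by 2.23 (SE 0.17, limma adjusted p = 0.000126). The number of macrophage genes called higher was 1 when FRG+NTBC mouse 1 or mouse 2 was left out, and 2 when FRG+NTBC mouse 3 or FRG-7dNTBC mouse 1 was. The part of these cells in the rise of Car2 was not tested.

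Along chromosome 3, the calls of the 4 cytosolic genes therefore ran higher, lower, lower and higher in the order Car13, Car1, Car3 and Car2. The Car13 call rests on 1421307_at, with means of 8.65 and 26.7, inside the range of little or no target. Its other probe sets were not called. In the annotation the non-coding RNA gene Gm41999 overlaps Car3, and no probe set of the array annotation names it.

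Car5a fell in every liver without NTBC, and more unevenly than the other members. Its single probe set read 1038, 1160 and 1458 in FRG+NTBC livers. The FRG-7dNTBC livers read 168, 113 and 39.1, with mouse 3 lowest and inside the range of little or no target. The highest of them was 4.29 times the lowest, the widest spread within a group at any member's probe set. The log2 fold change was -3.74 (SE 0.47), 13.3-fold lower, and leaving out mouse 3 of that group gave -3.13 and leaving out mouse 1 gave -4.18. Without mouse 3 the fall was thus more than 1.5 times smaller as a fold, and it was still called.

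The enzymes that use bicarbonate, several of them fed by Car5a, were mostly lower too. Of 8 such enzymes, 6 were lower and none was higher, and their median on the log2 scale was -0.65, where 12.7% of 18193 genes were lower at their brightest probe set, 17.4% were higher and the median was -0.05. Cps1, which takes up bicarbonate at the entry of the urea cycle, averaged 9633 ± 269 in treated livers and 5865 ± 1157 in the others (SD over 3 mice). It fell by 0.73 on the log2 scale (SE 0.16, limma adjusted p = 0.0103), and the ordinary linear model did not call it. The acetyl-CoA carboxylases Acacb and Acaca, which start fatty acid synthesis or hold back its oxidation, fell by 2.33 (SE 0.16, limma adjusted p = 7.8e-05) and by 1.41 (SE 0.20, limma adjusted p = 0.00149). Without moderation 2 enzymes of this list were called lower, and 3 when FRG+NTBC mouse 2 or 3 was left out. When FRG-7dNTBC mouse 3 was left out, 2 enzymes of this list were called higher. Of 8 enzymes and carriers of the urea cycle, Cps1 among them, 4 were lower and none was higher. Among the 4 was Ass1, read at a dim probe set with means of 115 with NTBC and 21.2 without. The second of these means lay inside the range of little or no target. After scaling the arrays to the same 75th percentile, 7 of these 8 were lower, and 2 were without moderation.

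Car14, a membrane enzyme known from liver, kidney and brain, fell in every liver without NTBC. The treated livers read 212, 290 and 300, and those without NTBC read 43.1, 38.1 and 42.8. The livers without the drug lay below all the others, at a log2 fold change of -2.68 (SE 0.16), 6.41-fold lower. Their readings were inside the range of little or no target, so neither this size nor their closeness to each other is exact. This probe set carries the suffix that Affymetrix uses where probes can match several transcripts, and Car14 had no other single-symbol probe set.

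Car8 was called lower at the 2 dimmer of its 3 probe sets. At the brightest, 1427482_a_at, the treated livers read 1278, 1235 and 1380, and those without NTBC read 1201, 1113 and 798. The groups did not overlap but came close, and the log2 fold change of -0.34 (SE 0.17) was not called, except after quantile normalization of the deposited values, at -0.51. At 1424958_at the readings went from 84.5, 80.5 and 78.3 to 53.8, 40.5 and 46.5, a log2 fold change of -0.80 (SE 0.14). At 1457904_at they went from 44.9, 26.4 and 38.9 to 19.3, 14.5 and 21.4, a change of -0.98 (SE 0.23). Both group means of these dimmer probe sets lay inside the range of little or no target. The last call was lost in the ordinary linear model and when FRG+NTBC mouse 1 or 3 was left out.

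Car4, Car9 and Car12 read low in both groups. Mature T and B cells are absent from these mice, and the 14 probe sets of 9 lymphocyte genes show what such probe sets read with little or no target, from 4.94 to 99.4 with a median of 14.9. The top of this range is set by a Cd8a probe set, with means of 102 with NTBC and 96.7 without. The brightest probe set of Cd3e had means of 64.3 and 57.7. Both group means of 11 of the 20 carbonic anhydrase probe sets lay under 99.4, among them the called ones of Car8 and Car13, and those of 6 lay under 14.9. For comparison, 70% of all probe sets had a mean under the highest lymphocyte reading. The membrane enzyme Car4, known from capillary walls, read 15.0 to 17.5 with NTBC and 13.1 to 14.4 without at its brighter probe set, and 6.15 to 8.40 over all livers at the other. Car12, a membrane enzyme of epithelia, read 7.11 to 13.0 over its 3 probe sets and all livers. These readings do not show whether Car4 or Car12 changed. Of 10 endothelial markers 2 were higher and none lower, against 17.4% and 12.7% of all genes. Their summed intensities were 1862 to 2702 with NTBC and 2582 to 3216 without. The higher calls were 1 when FRG+NTBC mouse 1 or 2 or FRG-7dNTBC mouse 1 was left out, and 4 when FRG+NTBC mouse 3 was.

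Car9, the membrane enzyme induced by hypoxia, read 32.9, 36.5 and 29.0 with NTBC and 33.6, 29.7 and 26.7 without. The groups overlapped, and the log2 fold change was -0.13 (SE 0.14). All of these readings lay inside the range of little or no target, so they do not show whether Car9 changed. Of 20 other genes known as targets of the hypoxia-inducible factor (HIF), 8 were higher and 2 lower, against 17.4% and 12.7% of all genes, and their median on the log2 scale was 0.07. The stress-responsive gene Ndrg1 rose by 3.10 (SE 0.32, limma adjusted p = 0.000383), the phosphofructokinase regulator Pfkfb4 by 2.14 (SE 0.28) and the oxygen sensor Egln3 by 1.73 (SE 0.18). The pyruvate dehydrogenase kinase gene Pdk1 fell by 2.50 (SE 0.27, limma adjusted p = 0.000448), and the angiogenic factor Vegfa stood at -0.42 (SE 0.14, limma adjusted p = 0.0616). The list thus moved both ways. Vegfa was called lower after scaling to the same 75th percentile, after quantile normalization, with array weights and when FRG+NTBC mouse 3 was left out.

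**Figure D3:**
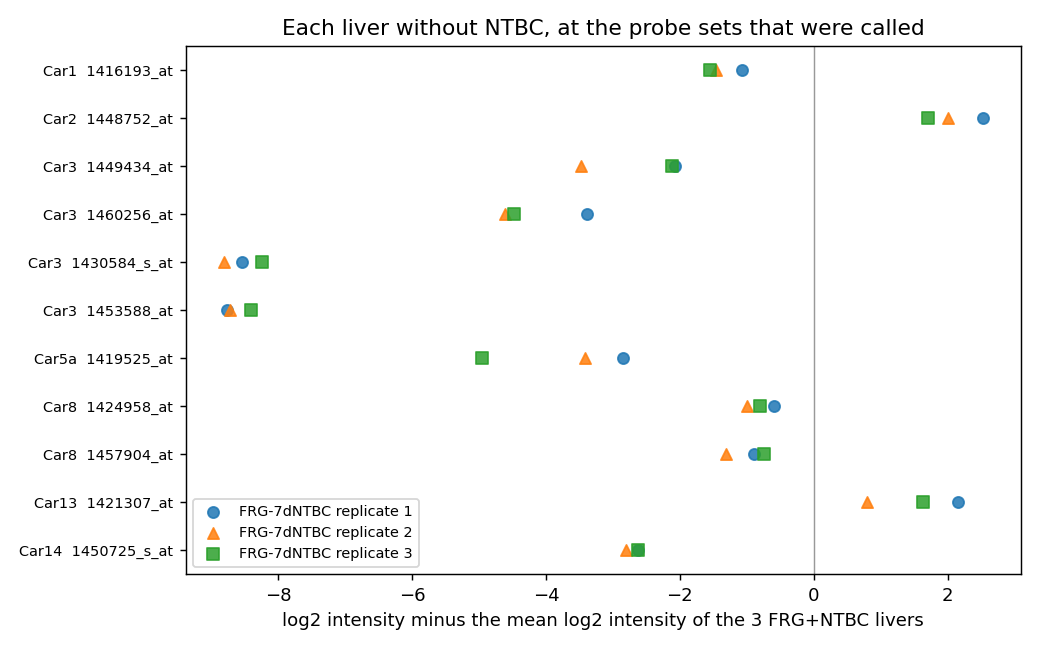
Log2 intensity of each FRG-7dNTBC liver minus the mean log2 intensity of the 3 FRG+NTBC livers (horizontal axis) at the 11 carbonic anhydrase probe sets that were called, with 1 symbol per liver. The livers spread most for Car5a, and mouse 2 is the farthest to the left at 6 of the 9 probe sets called lower.

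At most of the carbonic anhydrase probe sets the livers without NTBC varied more among themselves. The SD of log2 intensity was larger in FRG-7dNTBC than in FRG+NTBC livers at 14 of the 20 probe sets. For the brightest Car3 probe set it was 0.80 against 0.06, for Car5a 1.09 against 0.25, and for Car13 at 1421307_at 0.69 against 0.11. Of the 9 probe sets called lower, mouse 2 had the lowest value among livers without NTBC at 6, mouse 3 at 2 and mouse 1 at 1. At the probe sets called higher, the lowest of these livers was mouse 3 for Car2 and mouse 2 for Car13. The SD count and the count of lowest livers were not made over all probe sets. Car3 and Car8 each hold several of the probe sets called lower, so nothing about the family is read from these counts.

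The 6 carbonic anhydrases outside the examined set, Car5b, Car6, Car7, Car10, Car11 and Car15, were read by 10 probe sets. None of the genes was called at its brightest probe set, where log2 fold changes ran from -0.26 to 0.33. Except for Car7, with means of 103 and 102, both group means there lay inside the range of little or no target. Those readings do not show whether the genes changed. The other probe set of Car5b, which encodes a second mitochondrial enzyme, was called lower at -0.51 (SE 0.14, limma adjusted p = 0.0287). It read 10.3 to 18.1 over all livers, and the call was lost in 6 of the other settings. Summed over the 6 brightest probe sets, intensity was 238 to 287 with NTBC and 257 to 300 without.

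Transporters that carry bicarbonate or protons across membranes, many of which work beside carbonic anhydrases, had 5 of 20 measured genes lower and 2 higher. Of all genes, 12.7% were lower and 17.4% higher. The sulfate and bicarbonate exchanger Slc26a1 fell by 2.44 (SE 0.31, limma adjusted p = 0.00102), the sodium bicarbonate cotransporter Slc4a4 by 1.47 (SE 0.16, limma adjusted p = 0.00053), and the sodium proton exchanger Slc9a8 by 1.18 (SE 0.15, limma adjusted p = 0.000989). The lactate and proton carrier Slc16a1 rose by 1.78 (SE 0.27, limma adjusted p = 0.00211). The number of higher calls among these transporters was 1 when FRG+NTBC mouse 2 or 3 or FRG-7dNTBC mouse 1 or 2 was left out. Of 11 aquaporins and Rh channels, which pass water and gases, Aqp11 was higher at 1.07 (SE 0.26, limma adjusted p = 0.0167) and none was lower. The Aqp11 call was lost in the ordinary linear model and when FRG+NTBC mouse 2 or 3 or FRG-7dNTBC mouse 1 was left out, and 1 gene of this list was called lower when FRG-7dNTBC mouse 3 was. After scaling to the same 75th percentile, 2 were lower, and 1 transporter in place of 2 was higher.

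**Figure D4:**
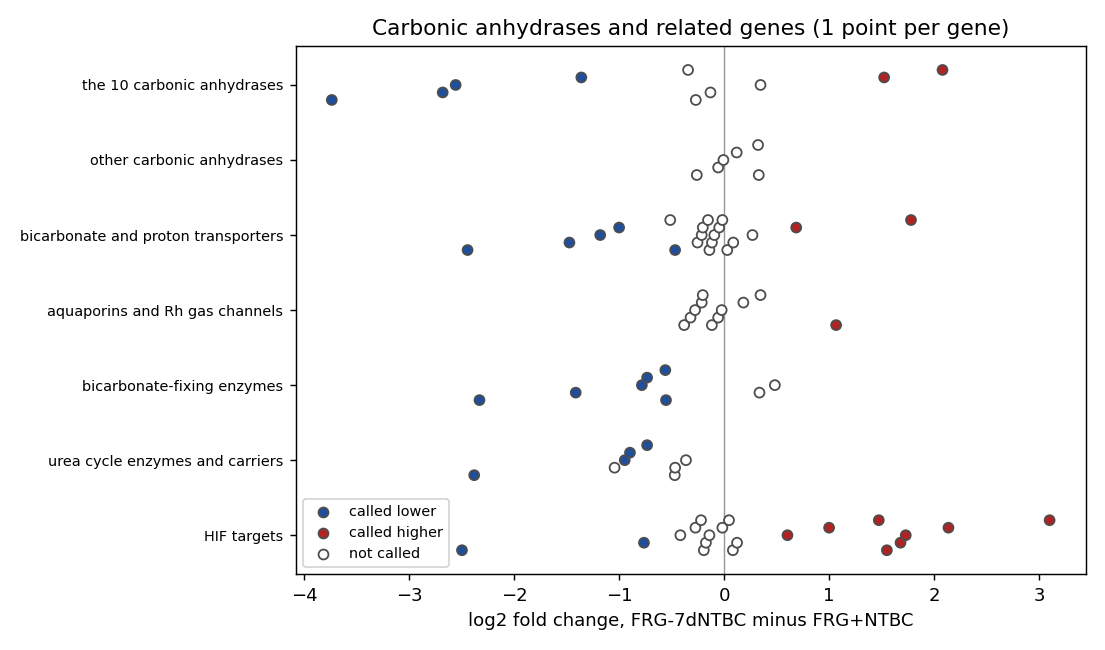
Log2 fold change (horizontal axis) of the 10 carbonic anhydrases, the 6 others and 5 lists of related genes, with 1 point per gene at its brightest probe set. Filled points were called by limma, blue where lower and red where higher. Of the 8 bicarbonate-fixing enzymes 6 are blue, and of the 20 HIF targets 8 are red and 2 blue.

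Over the 6 livers, the brightest Car3 probe set was most like those of Dlc1, Uroc1, Pgpep1, Ctsb and Nfib, with Pearson r from 0.997 to 0.999 of log2 values among 19596 single-symbol probe sets above the median intensity. The 6 values form 2 groups and share the contrast, so r is given as a description. Uroc1, the urocanase of histidine breakdown, read 4545, 4451 and 4513 with NTBC and 1193, 501 and 1024 without. Its log2 fold change was -2.41 (SE 0.29). The transcription factor gene Nfib read 1965, 1951 and 1808, then 776, 446 and 724. Both genes ranked the livers without NTBC as Car3 did, with mouse 1 highest and mouse 2 lowest. They were picked for their likeness to Car3 over these same livers, so the shared rank is no separate result.

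Over the whole arrays, Hpd had mean intensities of 12081 ± 386 in treated livers and 5766 ± 1431 in the others (SD over 3 mice). The remaining Fah signal cannot check the labels, since both groups carry the knockout. Median intensity was 33.1 to 36.5. Log2 values of array pairs correlated across probe sets at r = 0.98 to 0.993 within groups and 0.93 to 0.955 between groups. For groups of 3 mice, exact permutation of a single probe set cannot give a p below 0.1, so the calls rest on limma's model.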

How the data were processed

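RNA of pieces of liver tissue from 6 mice was hybridised to Affymetrix mouse expression arrays, 1 per mouse. The authors used Robust Multiarray Analysis, which corrects background, normalizes by quantiles and summarizes probes, and the deposited intensity values are linear, from 3.84 to 29532. The submitters' processing notes name Transcriptome Analysis Console. Columns were assigned by their sample labels, and mice are numbered by replicate. The array annotation gives 34945 probe sets 1 gene symbol, 932 several and 9160 none, and only the first were named. Nothing states the cage or litter of the mice, so errors measure the spread between these animals.

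Log2 was taken, and the groups were fitted with limma 3.58.1 under R 4.3.3, using moderated variances and no covariates. P-values were adjusted after Benjamini-Hochberg over 45037 probe sets, with none filtered out, and the threshold was 0.05. In lists, each gene stood by its brightest probe set on average. The fit was tested on simulated data. Members and lists were chosen with earlier results of these data known. Named were all members, from each pathway list the best known gene and up to 4 called genes that changed most, up to 2 genes of each marker list, and the 5 genes most like Car3. Gm41999 was named after its place was seen. No protein sequence was used here. The number of arrays limits the precision.

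The other settings were scaling to the same 75th percentile, a second quantile normalization, removal of dim probe sets, removal of probe sets matching several transcripts, moderation with an intensity trend, unmoderated variances, array weights, a replicate block, omission of each mouse, and the mean over a gene's probe sets.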

Additional observations from a re-analysis of the deposited data

How the results depend on the processing

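Of 250 refits of the 20 carbonic anhydrase probe sets, 235 kept direction and call, 7 gained and 4 lost a call, and 4 turned sign. The turns were at dim probe sets with no call. Car4 1448949_at ran from -0.18 to 0.034 when each mouse was left out, turning without FRG+NTBC mouse 3. Car12 1446517_at ran from -0.070 to 0.20 in the same way, turning without FRG-7dNTBC mouse 2 and, at -0.033, without FRG+NTBC mouse 1, and was -0.083 after 75th percentile scaling. The cause was not tested.

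Carbonic anhydrase probe sets called higher were 4 with array weights, 1 without moderation, 1 without dim probe sets (which keeps 10 of the 20), and 2 to 4 when each mouse was left out, with 4 without FRG-7dNTBC mouse 2. Those called lower were then 8 to 9. Over all probe sets, those called lower were 9669 after 75th percentile scaling, which moved the median log2 fold change by -0.13, and 3336 without moderation. Leaving out each mouse gave 3864 to 6400, with the fewest without FRG+NTBC mouse 2, and 4125 without FRG-7dNTBC mouse 1. Those called higher were 3141 without moderation and 4390 to 6815 when each mouse was left out. In the 5 related lists together, 16 genes were lower, but 9 without moderation and 11 to 15 when each mouse was left out.

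The replicate numbers did not pair the mice, with correlations of 0.106, 0.0339 and -0.156 between equal numbers. With the replicate block, 9 carbonic anhydrase probe sets were lower and 2 higher, as were 5272 and 6076 of all and 14 and 10 genes of the lists.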
